A study of Mus musculus with 32 samples.

Results

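The fasting response of wild-type (WT) mouse liver on a low-fat diet was measured by comparing 4 fasted with 3 fed mice, chosen by their genotype, diet and feeding state from a study of 32 mice. The study crossed genotype (WT, or MCAD-KO, which lack Acadm and with it medium-chain acyl-CoA dehydrogenase), diet (low-fat or high-fat) and feeding state (fed or fasted), with 4 mice in each of 8 groups. All 7 mice were male WT littermates of MCAD-KO mice on a C57BL/6J background, ate a semi-synthetic low-fat diet for 6 weeks, and carried no further allele or treatment. Fasted mice went 16 h without food from the evening on, fed mice kept their diet over the same 16 h, and livers were taken in the morning. The labels give the ages of the fasted mice as 12, 12, 7.5 and 11 and those of the fed mice (replicates 1, 3 and 4) as 9, 12 and 11, with no unit. The remaining fed mouse, replicate 2, had a labelled age of 11. It was left out of the main comparison because genes of proliferation and of the fetal liver set its library apart. Values with it are given where they change a result. Other mice enter the diet and genotype comparisons at the end. The WT mice of the high-fat diet had labelled ages of 13.5, 11, 13 and 8.5 (fasted) and 9, 11, 10 and 11 (fed). Those of the low-fat MCAD-KO mice were 14, 14, 10 and 10.5 (fasted) and 10.5, 10.5, 10 and 16 (fed).

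Between meals the liver turns from making fat and cholesterol to burning fatty acids. Low insulin and high glucagon, together with glucocorticoids and with fatty acids released from adipose tissue that act on the nuclear receptor PPARα, are known to raise genes of fatty acid oxidation, ketone body synthesis and gluconeogenesis. The factors SREBP-1c, SREBP-2 and ChREBP, which drive fatty acid, sterol and glycolytic genes after a meal, are less active in the fasted liver.

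Total counts ranged from 2339098 to 4138705 reads per mouse in the 7 libraries, so that 3 counts corresponded to between 0.725 and 1.28 CPM, the read counts scaled by library size. The Acadm counts of the WT mice (566 to 2752) were all above those of the MCAD-KO mice (26 to 94), as their labels say. Fed replicate 2 had a summed level of 754 CPM over 20 proliferation genes, against 19.9 to 37.4 CPM in the 7 other mice, and of 257 CPM over 8 fetal liver genes, against 12.5 to 26.3 CPM. Fasted replicates 1 and 2 were sequenced in lane 7, and fasted replicates 3 and 4 and every low-fat fed WT library in lane 8. Values within lane 8 are therefore given where they change a call. The lanes are those of the labels, which place more libraries in a lane than the methods describe, and which of these holds is not known. Hepatocyte markers were abundant in both groups, with sums over 10 genes of 54694 to 62682 CPM in fasted and 57599 to 61142 CPM in fed livers. Because whole liver was sequenced, fewer cells of a type and less RNA per cell cannot be told apart.

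Fasting changed 1056 of 10285 genes tested (edgeR quasi-likelihood test, adjusted p below 0.05). Of these 546 were higher in the fasted mice, which is 5.31% of the genes tested, and 510 were lower, which is 4.96%. The median log2 fold change over all genes was 0.010, while it was 0.98 (range 0.41 to 7.20) over the genes that rose and -0.99 (range -9.57 to -0.46) over those that fell. More than a 2-fold change was found for 266 of the genes that rose and 253 of those that fell. The CPM values of the groups did not overlap for 522 of the 546 and for 494 of the 510, where over all genes tested the fasted mice were all higher for 10.2% and all lower for 11.3%. With scaling by total counts alone the balance was 417 higher and 680 lower. Adding fed replicate 2, 411 genes were higher and 316 lower, and 670 of the 1056 calls were kept in the same direction. Within lane 8, which leaves 2 fasted mice, 363 were higher and 369 lower.

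**Figure D1:**
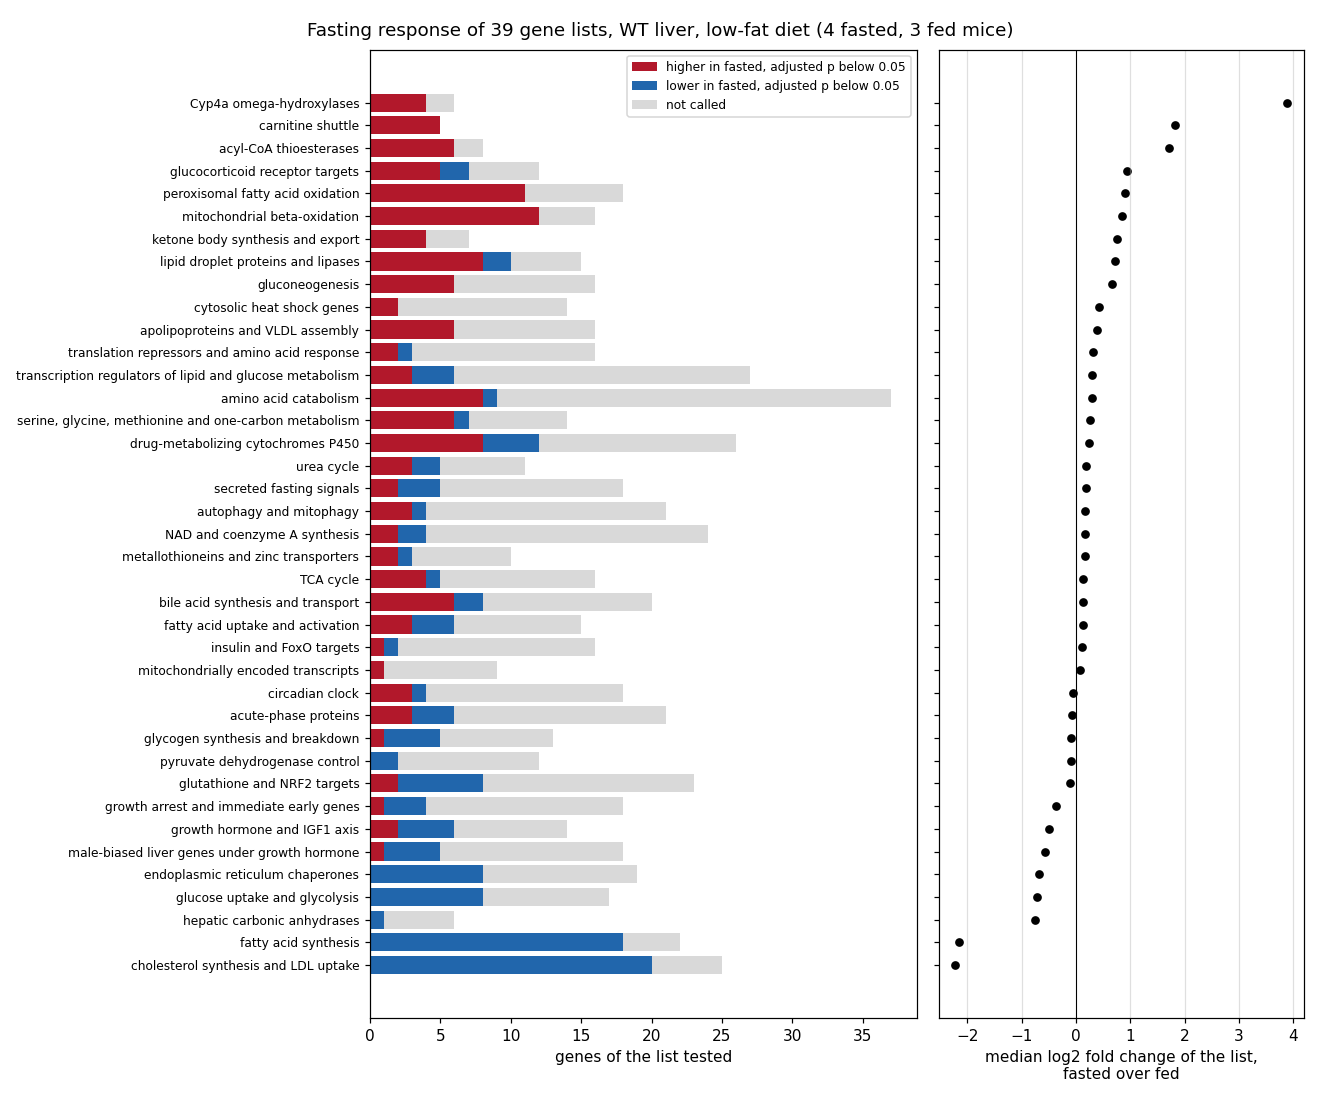
Left, number of genes in each of 39 pathway lists that were higher (red), lower (blue) or not called (grey) in fasted against fed livers, by edgeR with adjusted p below 0.05. Right, the median log2 fold change of the tested genes of each list: the Cyp4a list lies highest at 3.88, and the fatty acid synthesis and cholesterol lists lie lowest at -2.16 and -2.22.

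Genes that bring fatty acids into mitochondria and oxidize them rose together. All 5 tested genes of the carnitine shuttle were higher, with a list median log2 fold change of 1.82, as were 12 of 16 genes of mitochondrial beta-oxidation (median 0.84), and none was lower. The carnitine shuttle carries long-chain acyl groups across the inner membrane, and its entry enzyme is encoded by Cpt1a (ENSMUSG00000024900, chr19:3322334-3385733, GRCm38). Cpt1a was at 579, 664, 529 and 506 CPM in the fasted and at 182, 156 and 155 CPM in the fed mice, a log2 fold change of 1.82 ± 0.15 (SE, adjusted p 3.9e-08). The lowest fasted mouse was thus well above the highest fed mouse. The carnitine transporter Slc22a5 stood at 15.6, 20.6, 18.8 and 21.6 CPM against 2.61, 2.30 and 3.51 CPM (2.79 ± 0.35, adjusted p 1e-05). The carnitine acetyltransferase Crat stood at 58.4, 82.9, 56.7 and 55.4 CPM against 14.5, 9.21 and 12.7 CPM (2.39 ± 0.23, adjusted p 2.3e-07). Neither gene overlapped between the groups. Cpt2, whose product rebuilds acyl-CoA inside the mitochondrion, and the carrier gene Slc25a20 rose by 1.26 ± 0.15 and 1.34 ± 0.14.

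Within mitochondrial beta-oxidation, Acadm (ENSMUSG00000062908, chr3:153922357-153944632), the gene that the MCAD-KO mice lack, was at 662, 589, 723 and 559 CPM in the fasted and at 225, 186 and 188 CPM in the fed WT mice (1.69 ± 0.15, adjusted p 9e-08). Etfdh, which passes electrons from the acyl-CoA dehydrogenases to ubiquinone, was at 252, 237, 233 and 247 CPM against 101, 111 and 91.8 CPM (1.29 ± 0.14, adjusted p 1.7e-06). Eci2, an enoyl-CoA isomerase of unsaturated chains that is counted in the peroxisomal list below as well, was at 232, 235, 266 and 240 CPM against 114, 81.9 and 81.3 CPM (1.42 ± 0.16, adjusted p 1.7e-06). The fasted mice were within a narrow range for each of these genes. The long-chain and very-long-chain dehydrogenases Acadl and Acadvl rose less, by 0.84 and 0.72, and the trifunctional protein genes Hadha and Hadhb by 0.84 and 1.38. Not every step moved: the short-chain dehydrogenase Acads had a log2 fold change of -0.02 (adjusted p 0.972) and the hydratase Echs1 of -0.09 (adjusted p 0.77), and Acaa2 and Etfa also missed the threshold.

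In peroxisomes, which shorten very long chains before mitochondria finish them, 11 of 18 tested genes were higher and none lower (median 0.90). Ehhadh (ENSMUSG00000022853, chr16:21761287-21787807), the bifunctional enzyme of this pathway, was at 762, 1065, 1446 and 1041 CPM in the fasted and at 97.9, 88.2 and 115 CPM in the fed mice (3.45 ± 0.21, adjusted p 1.6e-09). Pex11a, a peroxisome division gene, was at 671, 817, 867 and 1159 CPM against 224, 166 and 204 CPM (2.17 ± 0.18, adjusted p 6e-08). Neither gene overlapped between the groups. Genes of bile acid side chains and branched chains differed among themselves, since Acox2 rose by 0.78 (adjusted p 0.00138) while Acox3 had a log2 fold change of -0.39 (adjusted p 0.316) and Amacr of 0.25 (adjusted p 0.361).

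The largest increase among genes with at least 20 CPM was in omega-hydroxylation, in which Cyp4a enzymes oxidize fatty acids from the methyl end. Cyp4a14 (ENSMUSG00000028715, chr4:115486200-115496142) was at 20234, 20870, 20301 and 14561 CPM in the fasted and at 196, 144 and 52.9 CPM in the fed mice (7.20 ± 0.60, adjusted p 0.00092). Cyp4a10 was at 2939, 3517, 2848 and 2049 CPM against 82.4, 53.3 and 47.2 CPM (5.56 ± 0.26, adjusted p 1.3e-09). Cyp4a31 was at 83.0, 80.6, 59.2 and 46.1 CPM against 1.43, 2.30 and 1.27 CPM (5.34 ± 0.32, adjusted p 5.4e-10). The groups were far apart for each, and the fed mice also differed among themselves for Cyp4a14. In fed replicate 2 Cyp4a14 was at 1371 CPM and Cyp4a31 at 20.5 CPM, and with this mouse the adjusted p was 0.0434 and 0.0667. Cyp4a32 rose by 2.41 (adjusted p 0.00556, but 0.105 within lane 8), whereas the male-biased members Cyp4a12a and Cyp4a12b had log2 fold changes of -0.19 (adjusted p 0.861) and 0.40 (adjusted p 0.442). These genes are near-identical neighbours, and reads of one may have been counted on another.

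Acyl-CoA thioesterases, which release free fatty acid and coenzyme A, were higher in 6 of 8 tested genes (median 1.71). Acot1, the cytosolic member, was at 591, 558, 897 and 529 CPM in the fasted and at 39.2, 26.6 and 26.8 CPM in the fed mice (4.40 ± 0.23, adjusted p 8.8e-10). Its mitochondrial relative Acot2 was at 73.6, 44.0, 131 and 31.9 CPM against 5.46, 3.95 and 6.05 CPM (3.76 ± 0.64, adjusted p 0.0135). Acot12, which cleaves acetyl-CoA, was at 183, 172, 168 and 189 CPM against 60.1, 58.6 and 55.1 CPM (1.64 ± 0.15, adjusted p 9e-08). The mice of each group were close together for Acot12 and spread widely for Acot2. The Acot2 call was lost with fed replicate 2 included (adjusted p 0.346), within lane 8 (0.0634) and when any fed mouse was left out (0.0676 to 0.0876). Acot1 to Acot4 are copies of one another, and their reads may be shared.

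Acetyl-CoA from beta-oxidation is turned into ketone bodies in the liver, and 4 of 7 genes of this list were higher and none lower (median 0.76). Acat1, the thiolase that joins acetyl-CoA units, rose by 0.76 ± 0.14 (adjusted p 0.00059), with no overlap between the groups. Bdh1, which reduces acetoacetate to hydroxybutyrate, was at 181, 211, 361 and 157 CPM against 280, 252 and 218 CPM and did not pass the test (-0.12 ± 0.26, adjusted p 0.865). The monocarboxylate transporter gene Slc16a7 rose by 0.99 ± 0.25 (adjusted p 0.0113), a call lost within lane 8 (0.0852) and without fed replicate 4 (0.0817).

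**Figure D2:**
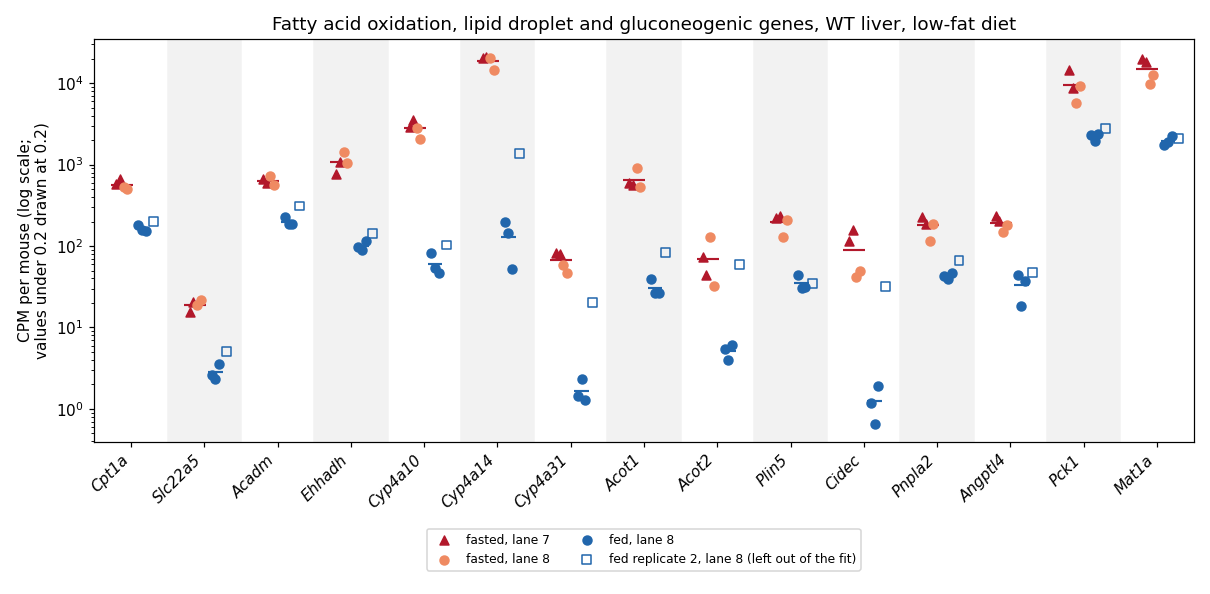
CPM of 15 fatty acid oxidation, lipid droplet and gluconeogenic genes in each mouse, on a log axis, for fasted mice of lane 7 (dark red triangles) and lane 8 (orange circles), fed mice (blue circles) and fed replicate 2 (open squares); lines are group means without fed replicate 2. For each gene the 4 fasted mice lie above the 3 fed mice, as for Cpt1a (506 to 664 against 155 to 182 CPM).

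PPARα binds DNA as a pair with RXR at DR1 elements, which are 2 copies of AGGTCA in the same direction with 1 base between them. RefSeq promoter windows (GRCm38.p6, 250 bases before to 50 bases after a gene start) were found for 164 of 219 named genes and were searched on both strands for DR1 elements with up to 2 mismatches, which 3.86% of 32851 promoters hold. Genes that rose and had a promoter were then counted, where a match in any promoter of a gene sufficed. The share of 3.86% is instead of single promoters. A match was held by 1 of 9 peroxisomal genes, 2 of 6 thioesterases and 1 of 8 lipid droplet genes. It was held by 1 of 4 carnitine shuttle genes and 0 of 11 mitochondrial beta-oxidation genes. These 5 matches are shown to let the letters of the element be compared, with 20 bases on either side and the match in capitals, each written 5′ to 3′ on the strand of the gene.
Slc25a20 (chr9:108662122-108662174, plus strand): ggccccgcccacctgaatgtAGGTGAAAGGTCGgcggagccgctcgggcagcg
Acox2 (chr14:8258798-8258850, minus strand): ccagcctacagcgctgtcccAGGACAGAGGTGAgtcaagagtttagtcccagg
Acot4 (chr12:84038346-84038398, plus strand): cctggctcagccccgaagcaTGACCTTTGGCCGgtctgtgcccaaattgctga
Acot12 (chr13:91741391-91741443, plus strand): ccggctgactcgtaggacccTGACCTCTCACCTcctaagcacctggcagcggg
Plin2 (chr4:86670252-86670304, minus strand): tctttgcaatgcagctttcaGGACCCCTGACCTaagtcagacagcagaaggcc
The first 2 read forward and the other 3 in the reverse direction. Outside these lists, named genes that rose (Creb3l3, Cyp2d9, Cyp3a25), that fell (Gdf15, Slco1a1) and that were not called (Cd36, Igfals, Saa1) also held a match. A match is a resemblance of letters, and binding was not measured here.

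Lipid droplet genes and lipases were split. Of 15 tested genes 8 were higher and 2 lower (median 0.72). Cidec, a droplet fusion protein, was at 114, 157, 41.7 and 49.5 CPM in the fasted and at 1.19, 0.658 and 1.91 CPM in the fed mice (6.16 ± 0.84, adjusted p 0.00676). It was at 32.2 CPM in fed replicate 2, with which the adjusted p became 0.17, and it was 0.0554 without fed replicate 1. Plin5, which tethers droplets to mitochondria, was at 221, 233, 129 and 210 CPM against 43.5, 30.9 and 31.2 CPM (2.51 ± 0.21, adjusted p 1.2e-07). Pnpla2, the gene of adipose triglyceride lipase, was at 227, 188, 117 and 189 CPM against 42.8, 39.5 and 46.5 CPM (2.09 ± 0.19, adjusted p 2.3e-07). Both were clearly separated between the groups, in each case with fasted replicate 3 lowest among the fasted mice. The monoacylglycerol lipase gene Mgll rose by 1.49 ± 0.17, and Plin2, the main coat protein of hepatic droplets, by 1.06 ± 0.16. Abhd5, the activator of adipose triglyceride lipase, was lower, at 26.1, 44.4, 26.7 and 28.2 CPM against 63.2, 47.4 and 47.2 CPM (-0.73 ± 0.21, adjusted p 0.029). This call was lost with fed replicate 2 (0.251) and without any mouse except fasted replicate 2 (0.0558 to 0.159). G0s2, the inhibitor of adipose triglyceride lipase, ranged from 106 to 634 CPM in fasted and from 139 to 331 CPM in fed mice and did not pass (adjusted p 0.688).

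Fatty acid uptake and activation had 3 genes higher and 3 lower of 15 tested (median 0.12). Acsl1, the acyl-CoA synthetase that feeds oxidation and esterification, was at 2285, 2350, 2798 and 3122 CPM in the fasted and at 917, 782 and 777 CPM in the fed mice (1.70 ± 0.15, adjusted p 9.5e-08). Slc27a2, a very-long-chain acyl-CoA synthetase and transporter, rose by 1.15 ± 0.18 (adjusted p 0.0002). Acsl5 and Acsl3 were lower, by -0.75 ± 0.17 (adjusted p 0.00468) and -1.58 ± 0.40 (adjusted p 0.0458), and neither passed within lane 8 (0.0621 and 0.333). Acsl3 also missed the threshold in 6 of 7 fits that left out 1 mouse (0.0616 to 0.161; the exception was fed replicate 1). The synthetases thus went in both directions. Fabp5 was at 0, 3.50, 0 and 0.245 CPM against 22.3, 46.4 and 22.3 CPM (adjusted p 0.0033), and the scavenger receptor gene Cd36 did not pass (0.28 ± 0.47, adjusted p 0.797).

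The genes of fatty acid synthesis fell as a group: 18 of 22 were lower and none higher, with a median of -2.16. Fasn (ENSMUSG00000025153, chr11:120805846-120824547), the fatty acid synthase, was at 138, 109, 80.9 and 115 CPM in the fasted and at 827, 2788 and 2462 CPM in the fed mice (-4.17 ± 0.48, adjusted p 0.00362). Acly, which makes cytosolic acetyl-CoA from citrate, was at 33.7, 49.8, 55.9 and 54.2 CPM against 362, 829 and 734 CPM (-3.70 ± 0.31, adjusted p 7.3e-05). Thrsp was at 37.7, 8.56, 10.8 and 29.2 CPM against 316, 1136 and 1141 CPM (-5.27 ± 0.76, adjusted p 0.0121). The groups did not overlap, but fed replicate 1 was below the 2 other fed mice for these 3 genes. Scd1, the desaturase, had a smaller change, from 12095, 10271 and 15719 CPM in fed to 3392, 1671, 3324 and 4560 CPM in fasted mice (-1.95 ± 0.32, adjusted p 0.00822).

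Among the lower genes of this list were those of SREBP-1c and ChREBP, whose activity was not measured. Srebf1, which encodes SREBP-1c, was at 21.7, 26.9, 35.9 and 31.1 CPM in the fasted and at 101, 246 and 207 CPM in the fed mice (-2.65 ± 0.30, adjusted p 0.00027). Mlxipl, which encodes ChREBP, was at 110, 117, 113 and 93.4 CPM against 291, 304 and 337 CPM (-1.50 ± 0.14, adjusted p 1.8e-07). Mid1ip1, an activator of acetyl-CoA carboxylase, was at 16.7, 16.7, 17.5 and 13.5 CPM against 100, 155 and 165 CPM (-3.10 ± 0.20, adjusted p 8e-10). Each was separated between the groups. In fed replicate 2 several genes of the list were nearer to the fasted level, such as Mlxipl at 88.6 CPM and Thrsp at 29.6 CPM, and with this mouse 13 of the 18 calls were kept, while Mlxipl (adjusted p 0.074), Thrsp (0.076) and Pnpla3 (0.0558) were not called. Within lane 8, 14 genes were called, and Fasn (0.0915), Thrsp (0.114) and Pnpla3 (0.204) were not. Thrsp also missed the threshold without fed replicate 3 (0.0504), and Pnpla3 without fasted replicate 1 or 2 (0.0572 to 0.0625).

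Genes of cholesterol synthesis and uptake fell as broadly, with 20 of 25 lower and none higher (median -2.22). Cyp51 (ENSMUSG00000001467, chr5:4081145-4104746), the lanosterol demethylase, was at 28.3, 24.1, 25.4 and 17.7 CPM in the fasted and at 208, 222 and 202 CPM in the fed mice (-3.12 ± 0.17, adjusted p 8.7e-11). Sqle, the squalene epoxidase, was at 0.362, 1.95, 2.50 and 3.68 CPM against 43.7, 87.8 and 45.6 CPM (-4.67 ± 0.40, adjusted p 1.1e-06). Fed replicate 2 was on the fed side for both genes, at 251 and 75.3 CPM. Adding fed replicate 2 left 19 genes of the list lower. Within lane 8 17 were, and Mvd (adjusted p 0.0875) and Insig1 (0.0779) were among those that were not. Srebf2, the gene of the sterol-sensing factor itself, had a log2 fold change of -0.70 (adjusted p 0.417).

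SREBPs bind sterol response elements, here searched as TCACNCCAC on both strands, which 1.24% of promoters hold. Counted by gene as above, the element was in 1 of 16 fatty acid synthesis genes and 1 of 13 cholesterol genes that fell and had a promoter. Both are shown with the element in capitals.
Mlxipl (chr5:135106735-135106783, plus strand): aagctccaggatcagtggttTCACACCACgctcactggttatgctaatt
Hmgcs1 (chr13:119690194-119690242, plus strand): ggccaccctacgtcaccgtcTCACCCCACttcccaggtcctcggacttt
Hmgcs1, the cytosolic synthase of the sterol pathway, fell by 2.08 on the log2 scale (adjusted p 0.00468). Outside these lists, named genes that rose (Acsl1, Ehhadh), that were not called (Cyp2a5) and that were not tested (Cyp2b10) also held the element. Binding was not measured here.

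**Figure D3:**
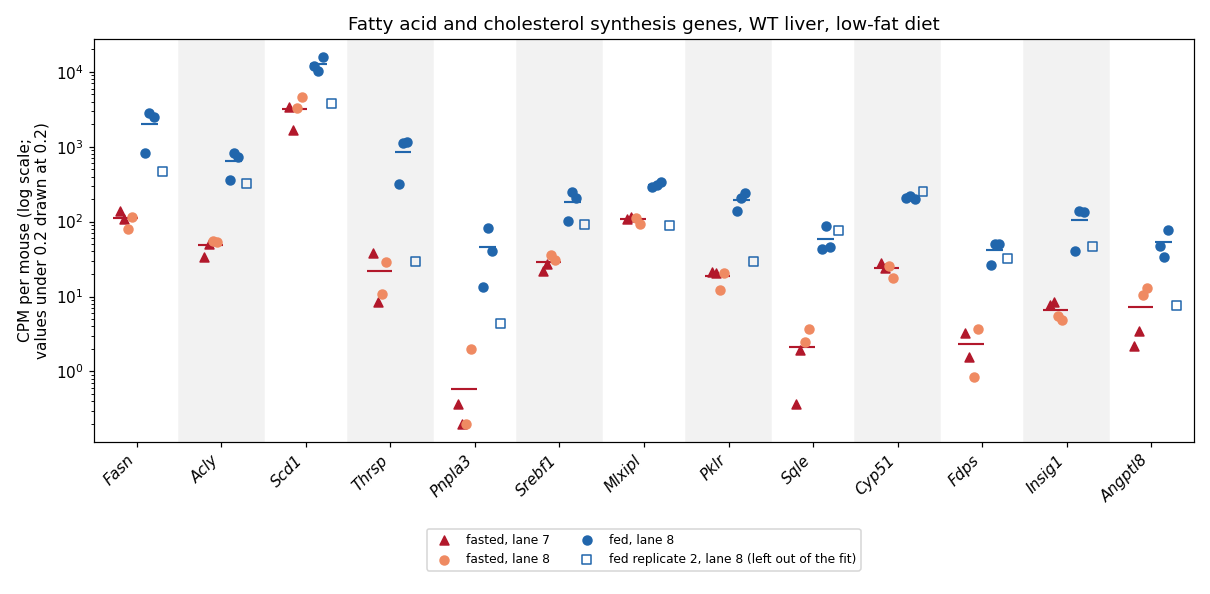
CPM of 13 fatty acid and cholesterol synthesis genes in each mouse, on a log axis with values under 0.2 drawn at 0.2; symbols are fasted mice of lane 7 (dark red triangles) and lane 8 (orange circles), fed mice (blue circles) and fed replicate 2 (open squares), and lines are means without fed replicate 2. The 4 fasted mice lie below the 3 fed mice for each gene, while fed replicate 2 lies near the fasted mice for Mlxipl (88.6 CPM) and near the fed mice for Cyp51 (251 CPM).

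In the list of glucose uptake and glycolysis 8 of 17 genes were lower and none higher (median -0.71), and the other 9 were not called. Pklr, the liver pyruvate kinase, was at 21.0, 20.6, 12.1 and 20.8 CPM in the fasted and at 139, 207 and 239 CPM in the fed mice (-3.35 ± 0.21, adjusted p 2.1e-09). It was far below the fed level in each fasted mouse. Pklr was at 29.6 CPM in fed replicate 2, and 2 genes of the list were called lower with that mouse and 5 within lane 8.

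Of 16 gluconeogenic genes 6 were higher and none lower (median 0.67). Pck1 (ENSMUSG00000027513, chr2:173153048-173159273), the gene of cytosolic PEPCK, was at 14513, 8817, 5757 and 9279 CPM in the fasted and at 2298, 1941 and 2360 CPM in the fed mice (2.15 ± 0.28, adjusted p 0.00077). Pcx, the pyruvate carboxylase, was at 249, 358, 325 and 290 CPM against 195, 172 and 168 CPM (0.80 ± 0.15, adjusted p 0.00098). Gk, through which glycerol enters, was at 399, 354, 398 and 350 CPM against 144, 110 and 103 CPM (1.68 ± 0.15, adjusted p 1.4e-07). Entry steps from glycerol and pyruvate thus differed between the groups. G6pc, which releases glucose, was at 536, 607, 426 and 482 CPM against 494, 400 and 341 CPM and did not pass (0.34 ± 0.16, adjusted p 0.201), nor did Fbp1 (-0.12, adjusted p 0.663). The FoxO site TGTTTAC, held by 3.65% of single promoters, was in 0 of 5 genes that rose and had a promoter.

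Glycogen genes were mostly lower among those called, 4 against 1 of 13 tested (median -0.09). Pygl, the phosphorylase, was at 183, 157, 136 and 212 CPM in the fasted and at 411, 482 and 494 CPM in the fed mice (-1.40 ± 0.15, adjusted p 1.7e-06). Ppp1r3b, which targets a phosphatase to glycogen, was at 216, 121, 188 and 184 CPM against 547, 698 and 773 CPM (-1.90 ± 0.17, adjusted p 2.6e-07). Ugp2 and Gbe1, of glycogen synthesis, fell as well, by -0.90 and -1.02, and Gys2, the liver glycogen synthase, rose by 0.71 (adjusted p 0.00739; 0.151 within lane 8 and 0.0533 without fed replicate 3). Genes of synthesis and of breakdown thus fell side by side. With fed replicate 2, at 158 CPM for Pygl and 79.4 CPM for Ppp1r3b, the adjusted p of these 2 genes was 0.0518 and 0.227. Pdk4, which shuts pyruvate dehydrogenase in many fasted tissues, was at 6.16, 15.6, 23.3 and 15.2 CPM against 7.13, 18.1 and 21.7 CPM, with no difference detectable at this depth (-0.01 ± 0.42, adjusted p 0.99).

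Amino acid and methionine genes moved in a more selective way, with 8 of 37 amino acid catabolism genes higher and 1 lower (median 0.29) and 6 of 14 genes of serine, methionine and one-carbon metabolism higher and 1 lower (median 0.26). Mat1a (ENSMUSG00000037798, chr14:41105035-41124412), which makes S-adenosylmethionine in hepatocytes, was at 19951, 18035, 9914 and 12691 CPM in the fasted and at 1733, 1896 and 2263 CPM in the fed mice (2.97 ± 0.23, adjusted p 1.7e-06). Ahcy, which clears the product of methylation, was at 349, 393, 271 and 311 CPM against 162, 157 and 182 CPM (1.01 ± 0.15, adjusted p 8.8e-05). The groups were separate for both. Gpt2, an alanine aminotransferase, was at 862, 680, 371 and 631 CPM against 184, 210 and 220 CPM (1.66 ± 0.23, adjusted p 0.00024). Tdo2, which opens the ring of tryptophan, was at 4714, 3495, 2209 and 3625 CPM against 1423, 1416 and 1393 CPM (1.34 ± 0.19, adjusted p 0.00014). Fasted replicate 3 was the lowest fasted mouse for each of these 4 genes and for Pck1.

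In the urea cycle list 3 of 11 genes were higher and 2 lower (median 0.18), and the same mouse was the lowest fasted mouse for the 3 genes given first here. Asl was at 621, 488, 207 and 313 CPM in the fasted and at 105, 119 and 145 CPM in the fed mice (1.75 ± 0.40, adjusted p 0.0426). Arg1, the arginase that releases urea, was at 4333, 3071, 1690 and 2556 CPM against 929, 1276 and 1368 CPM (1.31 ± 0.31, adjusted p 0.0336). Both calls were lost in the 5 fits without fasted replicate 2 or 4 or any fed mouse (0.0588 to 0.156 for Asl and 0.0699 to 0.102 for Arg1). Cps1, the entry step, was at 5116, 3987, 1534 and 2802 CPM against 1693, 2220 and 2014 CPM and did not pass (0.79 ± 0.41, adjusted p 0.341), but had an adjusted p of 0.00154 without fasted replicate 3. Otc was lower in the fasted mice, by -0.65 ± 0.16 (adjusted p 0.00706), though not with fed replicate 2 (0.297) or within lane 8 (0.112). The steps of the cycle therefore did not share a direction. Of the related genes for serine and ornithine, Sds (1.13 ± 0.31, adjusted p 0.0597) and Oat (1.53 ± 0.39, adjusted p 0.0651) were higher in each fasted than in each fed mouse but missed the threshold. Both passed without fasted replicate 3, and also without fasted replicate 1 for Sds (0.00024 to 0.0082) and without fed replicate 4 for Oat (0.00018 to 0.0121).

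Metallothioneins, which bind zinc and are raised by glucocorticoids and metals, were among the largest increases. Mt1 (ENSMUSG00000031765, chr8:94179082-94180327) was at 1280, 1079, 424 and 352 CPM in the fasted and at 23.3, 23.7 and 23.9 CPM in the fed mice (5.07 ± 0.67, adjusted p 0.00813). Mt2, its neighbour, was at 503, 803, 308 and 98.4 CPM against 15.0, 19.1 and 14.3 CPM (4.76 ± 0.89, adjusted p 0.0302). The 2 fasted mice of lane 7 were above the 2 of lane 8 for both genes, and within lane 8 the log2 fold changes were 4.05 (adjusted p 3.8e-10) and 3.66 (0.0384). Fed replicate 2, at 143 and 97.4 CPM, was above the other fed mice, and with it the adjusted p was 0.0542 and 0.0931. Without any single fed mouse it was 0.0502 to 0.054 for Mt1, and for Mt2 it was 0.0554 to 0.133 without any fed mouse or fasted replicate 1 or 3.

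The core of the metal response element was searched on either strand in a loose form, TGCNCNC, whereas the usual core has A or G at the first N. This short pattern was held at least once by 51% of promoters, at least 2 times by 20.2% and at least 4 times by 2.3%. The Mt1 and Mt2 promoters held 3 and 6 copies of the loose pattern, in capitals here to show how they are spaced. In Mt2, TGCTCTC and GGGAGCA fit only the loose form.
Mt1 (chr8:94179046-94179135, plus strand): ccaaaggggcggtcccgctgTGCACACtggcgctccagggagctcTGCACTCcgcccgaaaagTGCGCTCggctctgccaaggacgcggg
Mt2 (chr8:94172375-94172648, plus strand): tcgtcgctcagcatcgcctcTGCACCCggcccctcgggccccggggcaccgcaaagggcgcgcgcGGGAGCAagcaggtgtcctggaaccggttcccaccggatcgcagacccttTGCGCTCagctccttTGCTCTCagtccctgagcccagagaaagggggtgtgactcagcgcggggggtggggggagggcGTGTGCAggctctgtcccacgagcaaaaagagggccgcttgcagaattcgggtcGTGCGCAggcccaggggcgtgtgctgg
Of the other 8 tested genes of this list, 1 was called: Slc30a10, a metal exporter, was lower (-1.01 ± 0.18, adjusted p 0.0005, but 0.569 with fed replicate 2).

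Targets of the glucocorticoid receptor had a list median of 0.93, with 5 of 12 tested genes higher and 2 lower. Fkbp5, a co-chaperone that answers to glucocorticoids in many tissues, was at 132, 98.9, 43.8 and 63.0 CPM in the fasted and at 21.4, 9.54 and 10.8 CPM in the fed mice (2.59 ± 0.48, adjusted p 0.0164). Cdkn1a, the inhibitor p21 of the cell cycle, was at 130, 134, 58.8 and 51.0 CPM against 12.4, 10.5 and 12.1 CPM (3.02 ± 0.43, adjusted p 0.0027). Per1, a clock gene that the receptor also drives, was at 25.4, 32.3, 8.34 and 42.9 CPM against 4.75, 1.64 and 0.956 CPM (3.41 ± 0.65, adjusted p 0.00869). All 3 were separate between the groups, and the lane 7 mice were again the higher fasted mice for Fkbp5 and Cdkn1a. With fed replicate 2, at 86.7 CPM for Cdkn1a, the adjusted p of that gene was 0.337. Per1 had an adjusted p of 0.0966 within lane 8 and 0.0603 without fed replicate 3, and Fkbp5 of 0.0553 to 0.0781 without fasted replicate 2 or fed replicate 3 or 4. Nr3c1, the receptor's own gene, was lower, at 69.2, 72.4, 74.6 and 70.6 CPM against 115, 129 and 125 CPM (-0.75 ± 0.14, adjusted p 0.001). Dusp1, a target on the list, was lower as well (-1.47, adjusted p 0.00099). The targets Tsc22d3 (0.77, adjusted p 0.153) and Tat (0.72, adjusted p 0.614) did not pass. The genes of this list thus did not share a direction.

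Among 18 clock genes 3 were higher and 1 lower (median -0.06). Beside Per1, Dbp rose from 2.85, 2.63 and 4.78 CPM to 17.0, 6.62, 14.6 and 12.3 CPM (1.91 ± 0.42, adjusted p 0.004), and Bhlhe40 fell from 52.0, 62.2 and 60.9 CPM to 29.4, 13.6, 15.4 and 20.1 CPM (-1.54 ± 0.22, adjusted p 6.3e-05). Arntl, at the centre of the clock, was at 25.4, 33.5, 32.5 and 18.9 CPM against 23.5, 31.9 and 36.0 CPM (adjusted p 0.825). The E-box CACGTG, through which clock factors act, is held by 7.15% of promoters and by a promoter of Per1, in capitals here.
Per1 (chr11:69098763-69098808, plus strand): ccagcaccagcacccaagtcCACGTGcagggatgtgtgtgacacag
The promoters of the 2 other genes that rose did not hold these letters.

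**Figure D4:**
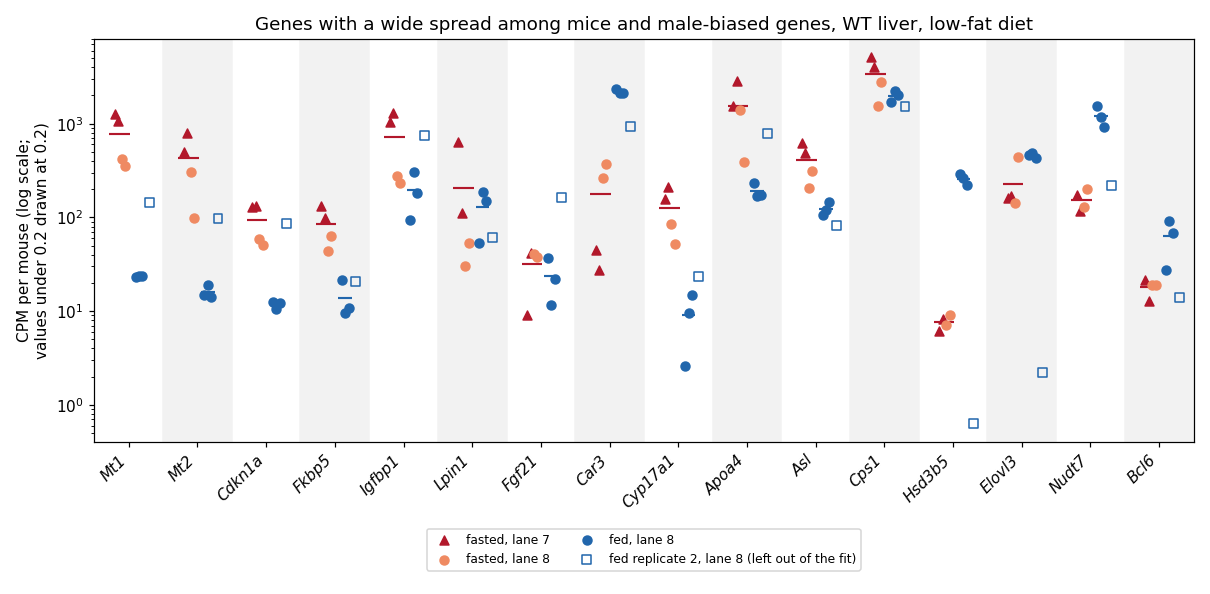
CPM of 16 genes with a wide spread among mice or a male bias, on a log axis, in fasted mice of lane 7 (dark red triangles) and lane 8 (orange circles), fed mice (blue circles) and fed replicate 2 (open squares); lines are means without fed replicate 2. The lane 7 mice lie above the lane 8 mice among the fasted for Mt1 (1280 and 1079 against 424 and 352 CPM) and below them for Car3 (44.6 and 27.6 against 261 and 371 CPM).

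Several well-known fasting genes were not called, and some of them spread widely among the mice of a group. Fgf21, the fasting hormone of the liver, was at 9.06, 41.3, 40.9 and 37.5 CPM in the fasted and at 37.1, 11.5 and 22 CPM in the fed mice (0.46 ± 0.60, adjusted p 0.739). Igfbp1, which insulin represses, was at 1033, 1312, 278 and 234 CPM against 93.1, 307 and 184 CPM (1.90 ± 0.87, adjusted p 0.286). Lpin1, a phosphatidate phosphatase and coactivator, was at 635, 111, 30.0 and 53.0 CPM against 53.9, 187 and 148 CPM (0.70 ± 1.22, adjusted p 0.816). The groups overlapped for the 3 genes. Ppara itself was at 124, 136, 201 and 169 CPM against 114, 102 and 154 CPM (0.38 ± 0.18, adjusted p 0.215). Car3, a carbonic anhydrase, was at 44.6, 27.6, 261 and 371 CPM against 2330, 2148 and 2106 CPM, far apart but with lanes 7 and 8 unlike among the fasted mice (-3.61 ± 1.0, adjusted p 0.0988; within lane 8 -2.78, adjusted p 1.2e-07). Apoa4, a lipid-inducible apolipoprotein, was at 1538, 2874, 1403 and 390 CPM against 233, 169 and 172 CPM (3.05 ± 0.74, adjusted p 0.0676; 0.00024 without fasted replicate 4).

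Other secreted signals did change. Angptl4, an inhibitor of lipoprotein lipase, was at 237, 201, 149 and 183 CPM in the fasted and at 43.7, 18.1 and 37.3 CPM in the fed mice (2.56 ± 0.26, adjusted p 3.4e-05). Angptl8, a meal-induced inhibitor of the same enzyme, was at 2.17, 3.50, 10.4 and 12.8 CPM against 47.5, 34.2 and 78.1 CPM (-2.80 ± 0.53, adjusted p 0.0129; 0.132 with fed replicate 2, at 7.57 CPM). The pair moved in opposite directions. Gdf15 fell to 2.17, 2.72, 5.42 and 0.736 CPM from 6.89, 16.1 and 29.6 CPM (-2.70 ± 0.56, adjusted p 0.00483; 0.19 within lane 8).

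Genes under growth hormone differed sharply from each other. Hsd3b5 (ENSMUSG00000038092, chr3:98618634-98630252), a steroid dehydrogenase of male liver, was at 6.16, 8.17, 7.09 and 9.07 CPM in the fasted and at 292, 262 and 224 CPM in the fed mice (-5.04 ± 0.19, adjusted p 6.7e-14). Slco1a1, an organic anion transporter of male liver, was at 240, 260, 203 and 254 CPM against 616, 567 and 518 CPM (-1.22 ± 0.14, adjusted p 3e-06). Nudt7, a peroxisomal coenzyme A hydrolase, was at 173, 117, 129 and 200 CPM against 1534, 1185 and 927 CPM (-2.95 ± 0.20, adjusted p 6.1e-08). The fasted mice agreed closely with each other on Hsd3b5. Over the 18 male-biased genes, however, 4 were lower and 1 higher (median -0.57), and Mup20 (0.22, adjusted p 0.609) and Cyp7b1 (-0.55, adjusted p 0.649) did not pass. Fed replicate 2 had a summed level of 1303 CPM over this list, against 16495 to 19844 CPM in the other fed and 10414 to 17347 CPM in the fasted mice. With it Hsd3b5 (0.631 CPM in this mouse) had an adjusted p of 0.105, Slco1a1 (2.52 CPM) of 0.759, and Nudt7 was called alone on the list (0.031).

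Within the growth hormone axis, Ghr, the receptor, was lower, at 147, 151, 210 and 267 CPM in the fasted and at 386, 380 and 382 CPM in the fed mice (-0.95 ± 0.18, adjusted p 0.00104; 0.173 with fed replicate 2). Stat5b, which relays its signal, fell by 0.71 ± 0.17 (adjusted p 0.00663; 0.102 with fed replicate 2). Igf1 was at 856, 814, 698 and 876 CPM against 1094, 808 and 810 CPM and did not pass (-0.13 ± 0.15, adjusted p 0.667). The receptor's main product in liver thus showed no detectable difference. Igfbp2 and Igfbp4, which bind IGF1, rose by 1.12 ± 0.25 (adjusted p 0.0138) and 0.68 ± 0.14 (adjusted p 0.00261). The Igfbp2 call was lost without fasted replicate 2 or fed replicate 1 (0.0565 to 0.062).

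Bile acid genes included 6 higher and 2 lower of 20 (median 0.13). Cyp7a1 (ENSMUSG00000028240, chr4:6265612-6275633), the rate-limiting enzyme of bile acid synthesis, was at 322, 227, 102 and 302 CPM in the fasted and at 43.7, 22.7 and 14.7 CPM in the fed mice (3.14 ± 0.59, adjusted p 0.0291). This call was lost within lane 8 (0.176) and without fasted replicate 1, 2 or 4 or fed replicate 3 or 4 (0.0638 to 0.133). Cyp8b1, which sets the cholic acid share, was at 905, 809, 615 and 745 CPM against 249, 294 and 245 CPM (1.57 ± 0.16, adjusted p 3.8e-07). Abcb11, the bile salt export pump, was lower, at 173, 172, 248 and 174 CPM against 426, 492 and 500 CPM (-1.28 ± 0.15, adjusted p 5.3e-06). Other synthesis genes of the list, such as Cyp27a1 (0.21, adjusted p 0.533) and Cyp7b1 (-0.55, adjusted p 0.649), did not pass, while Abcb4, the phospholipid exporter, rose by 1.36 ± 0.15.

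Of 26 tested P450 genes of drug and steroid metabolism 8 were higher and 4 lower (median 0.23). Adding fed replicate 2 gave 6 higher and 0 lower, and lane 8 alone 9 higher and 1 lower, so that the lower calls depended on the mice used. Por, which supplies these enzymes with electrons, was at 409, 394, 161 and 278 CPM in the fasted and at 23.3, 41.5 and 27.4 CPM in the fed mice (3.37 ± 0.41, adjusted p 0.0022). Cyp2e1 was at 3615, 4003, 3179 and 4168 CPM against 1618, 1559 and 1788 CPM (1.2 ± 0.14, adjusted p 4.3e-06; 0.0768 with fed replicate 2). Cyp2c70, which makes muricholic acids, was at 117, 43.6, 25.8 and 113 CPM against 740, 678 and 615 CPM (-3.14 ± 0.57, adjusted p 0.0258). It missed the threshold with fed replicate 2 (0.0626), within lane 8 (0.147) and without fasted replicate 2 or any fed mouse (0.064 to 0.0937). Nr1i3, the nuclear receptor CAR, was at 183, 231, 237 and 266 CPM against 55.4, 51.3 and 63.1 CPM (2.04 ± 0.16, adjusted p 2.2e-08). Glutathione and NRF2 genes went the other way on balance, with 6 of 23 lower and 2 higher (median -0.11). Gsta3 was lower by -1.28 ± 0.17 (adjusted p 4.6e-05). Srxn1 was higher by 0.76 ± 0.17 (adjusted p 0.005), but stood at 547 CPM in fed replicate 2, and with it the log2 fold change was -0.64 (adjusted p 0.733). Its adjusted p was 0.0557 without fed replicate 3 and 0.0548 within lane 8.

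Chaperones of the endoplasmic reticulum were lower for 8 of 19 genes and higher for none (median -0.69). Pdia6, a disulfide isomerase, was at 161, 148, 150 and 247 CPM in the fasted and at 493, 769 and 555 CPM in the fed mice (-1.75 ± 0.19, adjusted p 1.3e-05). Calr was lower by -0.94 ± 0.17 (adjusted p 0.00058). Hspa5, the main chaperone of this compartment, was at 1979, 1060, 686 and 2269 CPM against 1778, 3306 and 2601 CPM and did not pass (-0.75 ± 0.48, adjusted p 0.446). The list had 3 genes lower with fed replicate 2 and within lane 8 it had 5. In the cytosol Hspa8 was higher, by 1.12 ± 0.25 (adjusted p 0.0131), a call lost without fasted replicate 4 or fed replicate 4 (0.0504 to 0.0524).

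Autophagy genes had 3 higher and 1 lower of 21 (median 0.17). Bnip3, a mitophagy receptor, was at 315, 381, 277 and 271 CPM in the fasted and at 83.4, 74.0 and 88.9 CPM in the fed mice (1.95 ± 0.16, adjusted p 3.6e-08). Map1lc3a and Map1lc3b, of the LC3 family, rose by 0.97 ± 0.16 and 0.94 ± 0.16. Atf4, a factor of the amino acid response, was lower, at 94.6, 81.0, 101 and 104 CPM against 205, 206 and 182 CPM (-1.03 ± 0.14, adjusted p 3.4e-05), and its relative Atf5 was higher, by 0.92 ± 0.15 (adjusted p 0.00024; 0.131 with fed replicate 2). Of 16 TCA cycle genes 4 were higher and 1 lower (median 0.13), but 2 were higher both with fed replicate 2 (none lower) and within lane 8 (1 lower). The TCA cycle gene Cs, the citrate synthase, was lower by -0.57 ± 0.16 (adjusted p 0.022), a call lost with fed replicate 2 (0.199) and without fasted replicate 3 or fed replicate 3 or 4 (0.0549 to 0.218). Pank1, which starts coenzyme A synthesis, rose by 0.76 ± 0.14 (adjusted p 0.00057), opposite to the hydrolase gene Nudt7. Of 16 apolipoprotein and VLDL genes 6 were higher and none lower (median 0.39), but 2 within lane 8 and 3 with fed replicate 2. Acute-phase genes had 3 higher, Hp, Lbp and Serpina3n, and 3 lower, Fga, Fgg and Steap4, of 21 (median -0.08), while 1 was lower with fed replicate 2 and 5 within lane 8. Of these calls Fga was lost without fasted replicate 1 or any fed mouse (0.0546 to 0.0688), Fgg without any mouse except fasted replicate 2 (0.0526 to 0.144) and Serpina3n without fed replicate 4 (0.0568), and with fed replicate 2 Fga and Fgg had adjusted p of 0.402 and 0.569.

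Outside these lists, Slc16a5, a monocarboxylate transporter family member, was at 39.5, 27.6, 10.0 and 35.3 CPM in the fasted and at 1.19, 0.987 and 1.91 CPM in the fed mice (4.37 ± 0.49, adjusted p 7.9e-06; 34 CPM in fed replicate 2 and adjusted p 0.502 with it). The predicted gene Gm15441 was at 14.5, 30.0, 40.9 and 14.7 CPM against 0.238, 0.658 and 0.319 CPM, at least 28.3-fold higher in the fasted mice when the fed level is set to 3 counts per library (adjusted p 1e-06). Chrna4, a nicotinic receptor subunit, was at 0.362, 0, 0 and 0 CPM in the fasted and at 20, 170 and 98.1 CPM in the fed mice, at least 92.6-fold lower by the same floor (adjusted p 0.0142). The Chrna4 call was lost within lane 8 (0.316) and without fasted replicate 1, 2 or 4 (0.0544 to 0.236).

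Of the 10 hepatocyte markers 4 were higher and 2 lower in the fasted mice, where over all genes tested 5.31% were higher and 4.96% lower. Within lane 8 these counts were 2 and 1, and with fed replicate 2 they were 1 and 0. Markers of other cell types were mostly not called, but some fell. No gene was called in the lists of Kupffer cells (12 tested), sinusoidal endothelium (10), erythroid cells (5), adipocytes (1), neutrophils (2) or muscle (2), and none of the 10 lymphocyte markers passed the filter on low counts. Of 12 stellate cell and fibroblast genes 3 were lower in the fasted mice, Col1a1 (-2.19 ± 0.64, adjusted p 0.0337), Col3a1 (-2.11 ± 0.38, adjusted p 0.00063) and Acta2 (-2.15 ± 0.46, adjusted p 0.00292), with summed levels of 450 to 529 CPM against 507 to 644 CPM. Acinar pancreas genes summed to 2.08 to 13.6 CPM in fasted and 26.8 to 32.6 CPM in fed livers, and the 1 gene of that list that was tested, Cela1, was lower (-1.87 ± 0.36, adjusted p 0.00134). The 3 tested cholangiocyte genes included Spp1, lower by -1.08 ± 0.27 (adjusted p 0.00954), and that list summed to 56.9 to 67.1 CPM in fasted and 83.2 to 101 CPM in fed livers. The sums of the acinar and cholangiocyte lists did not overlap between the groups of the main comparison. In fed replicate 2 the acinar sum was 6.62 CPM, within the fasted range. Its cholangiocyte sum was 346 CPM, above every other mouse. With fed replicate 2 in the fit Col1a1 (0.173), Col3a1 (0.132), Cela1 (0.0914) and Spp1 (0.178) did not pass, and within lane 8 Col1a1 (0.124) did not. The part of these markers in the other results was not tested.

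To ask whether diet alters the fasting response of WT liver, the change on the low-fat diet was compared with that of 4 fasted and 4 fed WT mice on the high-fat diet in one model. The difference between diets passed for 33 of 11041 genes, 0.299%, of which 15 are among the genes named here. Of the high-fat WT fed libraries, replicates 1 to 3 were in lane 7 and replicate 4 in lane 8. Every low-fat WT fed library was in lane 8, so that diet and lane cannot be fully told apart among the fed mice. With a lane term 27 genes passed, and with age as a covariate 66. Mat1a rose by 2.97 on the low-fat and by 0.59 (adjusted p 0.167) on the high-fat diet, a difference of 2.39 (adjusted p 0.00025). Hsd3b5 had log2 fold changes of -5.04 and -0.15, a difference of -4.89 (adjusted p 0.00523). Nudt7 fell on both diets, with log2 fold changes of -2.95 and -0.85, a difference of -2.10 (adjusted p 9.1e-05). The response was larger on the low-fat diet for each of these, but the named genes were chosen mainly for their change on that diet, which favours this direction. The same was so for Cyp4a31 (5.34 against 1.84, difference 3.50, adjusted p 0.0048), Slc16a5 (4.37 against 0.38, adjusted p 0.00736), Gpt2 (1.66 against 0.19, adjusted p 0.00736), Pnpla2 (2.09 against 0.73, adjusted p 0.0415) and Mlxipl (-1.50 against -0.58, adjusted p 0.0415). Arg1 (1.31 against -0.21) and Atf5 (0.92 against -0.17) changed sign between diets, with no call on the high-fat diet. For Cpt1a (1.82 against 0.94), Fasn (-4.17 against -2.76) and Cyp51 (-3.12 against -1.27) the difference did not pass (adjusted p 0.199, 0.763 and 0.409). With fed replicate 2 in the fit 4 genes differed between diets, so that the number of such genes depends on this mouse.

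**Figure D5:**
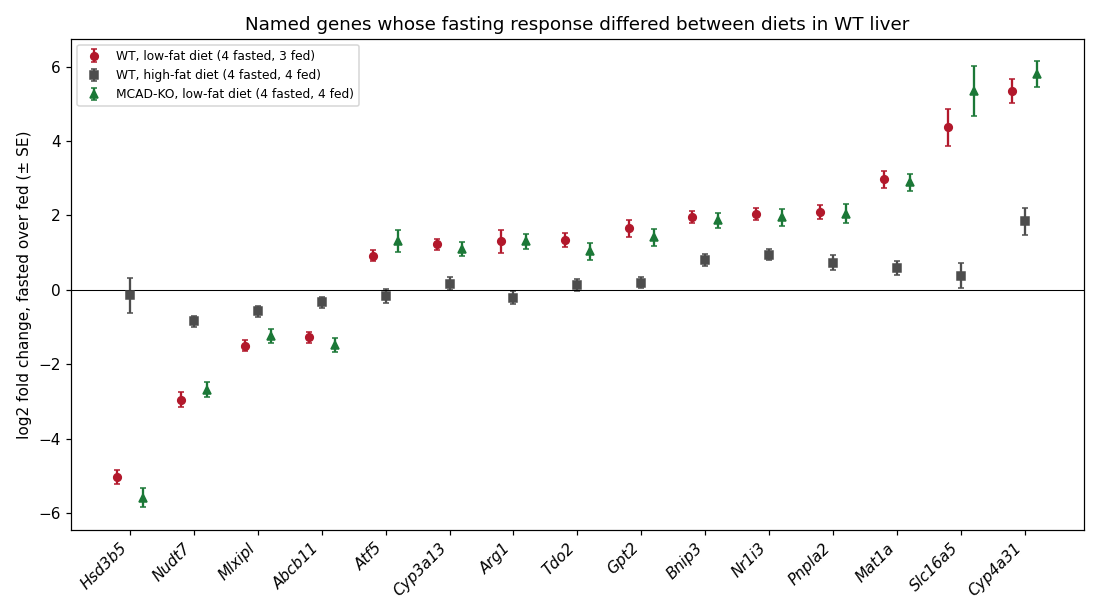
Log2 fold change of fasted over fed livers (± SE) of the 15 named genes whose response differed between diets in WT mice, for WT on low-fat diet (red circles, 4 fasted and 3 fed), WT on high-fat diet (grey squares, 4 and 4) and MCAD-KO on low-fat diet (green triangles, 4 and 4). Low-fat WT values are farther from 0 than high-fat WT values for all 15, from -5.04 for Hsd3b5 to 5.34 for Cyp4a31, in a set chosen mainly by the low-fat change.

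In MCAD-KO mice on the low-fat diet, whose 4 fasted and 4 fed mice are separate from those of the WT groups, the difference from the WT response passed for 0 of 10909 genes by edgeR and by limma voom and for 1 by DESeq2, with 392 genes at an unadjusted p below 0.05. Side by side, Hsd3b5 had log2 fold changes of -5.04 in WT and -5.59 in MCAD-KO mice, Mat1a of 2.97 and 2.89, Ehhadh of 3.45 and 4.11, Cyp4a14 of 7.20 and 6.75, and Fasn of -4.17 and -3.26. Cidec (6.16 and 8.27), Mt1 (5.07 and 6.18) and Car3 (-3.61 and -3.94), for which the WT calls changed with the mice used or were absent, had adjusted p-values of 0.00018, 9.3e-06 and 0.00067 in the MCAD-KO mice.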

How the data were processed

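Livers were freeze-clamped and their RNA was made into QuantSeq 3′ mRNA libraries. The authors deposited raw counts per gene, made with HISAT 0.1.5, SAMtools 1.2 and HTSeq 0.6.1p1 on GRCm38 per the labels and methods; whether HTSeq used strand is not given in the sources used here. A 3′ library counts the end of a transcript, so near-identical copies (Cyp4a, Acot, Mup and metallothionein genes) may share reads, and levels are not compared between genes.

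Of 20076 genes 19913 had a symbol, and the other 163 held 0.125% of counts. Counts were filtered with filterByExpr, scaled by TMM and tested with edgeR 4.0.16 (robust quasi-likelihood test, R 4.3.3), with p-values adjusted by Benjamini-Hochberg over all genes tested; the biological coefficient of variation was 22.3%. Printed CPM are scaled by TMM, SE is the log2 fold change divided by the square root of F, and n is 4 fasted and 3 fed mice. An exact permutation test of 4 against 3 mice cannot reach 0.05 two-sided, so overlap is given instead. Differences between diets or genotypes are interaction terms of the same kind of model. DESeq2 1.42.0, limma voom 3.58.1, other scalings and filters, a lane term, lane 8 alone, age, a replicate block, fed replicate 2 included and each mouse left out were the alternatives. On data simulated for this comparison (10224 genes) with a dispersion of 0.1, above the 0.0496 measured, 26% of 2-fold and 97% of 4-fold changes were recovered, and 2.38% of 126 calls were wrong.

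Members and gene lists were chosen with earlier results of these data known. Named genes are the anchor genes of each list, up to 3 called genes per direction in each list, called genes of lists with 5 or fewer, the 15 called genes per direction with the largest change (mean of at least 20 CPM, no overlap), and those of them with an interaction; the other list members, and Cyp4a12b, Amacr, Por and cell type markers among them, were named after their values were seen. Counting intervals cover counting error only. Some genes that the rule names are not reported here.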

Additional observations from a re-analysis of the deposited data

Results flagged for a closer look

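Among the 4 fasted mice, 1 mouse stood far from the other 3 by Dixon's test for 16 of 197 genes. A share of about 1 in 20 holds by chance for independent and normally spread values. These genes were chosen partly by their results in the same mice, so no excess is read from the count. Fasted replicate 1 was highest for Lpin1 (635.0 CPM) and lowest for Fgf21 (9.06 CPM). Fasted replicate 2 was highest for Abhd5 (44.4 CPM), Crat (82.9 CPM), Hsp90aa1 (99.3 CPM) and Socs2 (87.6 CPM) and lowest for Ier2 (16.3 CPM). Fasted replicate 3 was highest for Abcb11 (248.0 CPM) and Acot1 (897.0 CPM) and lowest for Pklr (12.1 CPM). Fasted replicate 4 was highest for Cyp2d9 (1497 CPM), Elovl3 (442.0 CPM), Lect2 (49.1 CPM), Pdia6 (247.0 CPM) and Slc25a20 (223.0 CPM) and lowest for Cyp4a14 (14561 CPM).

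The response to fasting differed between the low-fat and high-fat diet for 15 of the named genes by the interaction term. The difference of the log2 fold changes, low-fat minus high-fat, was positive for Arg1 (1.53), Atf5 (1.09), Bnip3 (1.15), Cyp3a13 (1.06), Cyp4a31 (3.50), Gpt2 (1.47), Mat1a (2.39), Nr1i3 (1.10), Pnpla2 (1.37), Slc16a5 (4.0) and Tdo2 (1.21). It was negative for Abcb11 (-0.94), Hsd3b5 (-4.89), Mlxipl (-0.91) and Nudt7 (-2.10).

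Fed replicate 2, outside the main comparison, had summed levels of 754.0 CPM for proliferation genes and 257.0 CPM for fetal liver genes, above every one of the 7 mice compared.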

How the results depend on the processing

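Of 1056 calls, 546 were higher and 510 lower. Higher calls were 363 within lane 8 alone, and lower calls 316 with fed replicate 2 included; with 1 mouse left out in turn they ranged from 334 to 597 and from 337 to 567. The fewest came without fed replicate 3 (334 and 337) and the most without fasted replicate 3 (597 and 567). Without fed replicate 4 there were 360 and 354. No filter on low counts gave 602 and 713, which tests more genes. DESeq2 gave 585 and 559 and voom 521 and 541. The replicate numbers did not pair the mice, since same-numbered deviations correlated at -0.00695, -0.0061 and -0.00154; a fit with the replicate block gave 865 calls (439 and 426). The 33 genes that differed between diets became 112 by DESeq2, 93 with no filter, 66 with age and 27 with a lane term. They became 4 with fed replicate 2 included, and 15 to 73 with 1 mouse left out. The 0 genes that differed between genotypes became 1 by DESeq2, 35 with no filter, and 0 to 1 with 1 mouse left out (1 without fasted replicate 2). Srxn1 reversed with fed replicate 2 included (-0.64, adjusted p 0.733). Of the 174 named genes that were called, 51 lost their call with that mouse included, 35 within lane 8, 32 with a lane term and 21 with the replicate block; the cause was not tested. A lane effect and part of the fasting effect cannot be told apart for the lane 7 mice. No fed WT mouse of the low-fat diet was in lane 7. The shallowest library had 2339098 counts. The share of 2-fold changes that would be found at the measured dispersion was not simulated.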
